A study of Mus musculus with 6 samples.

Results

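A set of 5 genes on chromosome 11 that differed strongly between NS-DADm and WT muscles lies within 17 Mb of Ncor1, the gene of the mutated corepressor NCoR. They are Cyfip2, Gm12185, Olfr1372-ps1, Itgae and F630206G17Rik, and they were picked by name from the 709 genes of the authors' deposited table. That table holds the genes the authors called as different between the genotypes, and on this chromosome segment it lists 26 genes. The 5 genes are those of the 26 whose group means differed at least 4-fold, so the sizes and directions below describe the choice and are given with no test. RNA was sequenced from the tibialis anterior (TA), a muscle at the front of the shin, of 3 NS-DADm and 3 WT mice, with 1 library per mouse. The labels give strain C57BL/6 and an age of 21 weeks for all 6 mice. NS-DADm mice carry whole-body knock-in mutations, among them a tyrosine-to-alanine change in the deacetylase activation domain of NCoR (Ncor1), and Ncor1 is not the only gene mutated in them. The controls were age-matched C57BL/6J mice without the mutations. Every NS-DADm mouse carried the mutated Ncor1 with the chromosome 11 DNA linked to it and no WT mouse did, so an effect of the mutations and a difference in linked DNA cannot be told apart here.

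NCoR is a large protein that binds nuclear receptors and other transcription factors and brings the histone deacetylase HDAC3 to their target genes. Its deacetylase activation domain is needed for HDAC3 to be catalytically active. Genes close to each other on a chromosome are inherited together, so DNA next to a targeted gene is carried along when a mouse line is bred.

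Ncor1 lies on the minus strand of chromosome 11 of GRCm38 from 62316426 to 62458541, and Ncor1 itself is not in the table. A gene that is not listed was not tested or not called and has no value here. Of 6 genes of the NCoR complex 1 was listed, Tbl1xr1, a subunit of the complex, at 1102 ± 167 normalized counts in NS-DADm and 629 ± 66.7 in WT (SD, n = 3 each). None of 10 muscle fiber markers was listed, so the tissue label could not be checked against them. Normalized counts are read counts that the authors scaled by the size of each library, and 1 read, inferred from the step between values, was worth 0.905 to 1.21 of them. The inferred reads over the 709 genes came to between 1047804 and 1411470 per library, which is a part of each library's depth and not its total.

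Of the 5 genes, 3 are annotated as protein-coding. Cyfip2 encodes a subunit of the WAVE complex, which starts the assembly of branched actin filaments below Rac. Itgae encodes the integrin alpha E chain (CD103), which pairs with the beta 7 chain on lymphocytes and dendritic cells that bind E-cadherin. Gm12185, named Irgb2b1 in RefSeq, belongs to the immunity-related GTPases, which interferons induce. Olfr1372-ps1 is annotated as a transcribed unprocessed pseudogene of the olfactory receptors, and F630206G17Rik as a processed transcript that RefSeq lists as a long noncoding RNA.

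RefSeq promoters of GRCm38.p6, from 250 bases before to 50 after the annotated start, were at hand for 3 of the 5 genes. They are shown because these 3 genes, neighbours in the list, include the gene that was lower in NS-DADm muscles and a pair that was higher. The sequences run 5′ to 3′ on the strand of the gene, and capitals mark matches to 4 motifs searched on both strands. The core site of nuclear receptors was searched as AGGTCA. The core of the interferon-stimulated response element was searched as a pair of GAAA with any 2 bases between them. The palindromic E-box was searched as CACGTG. The TATA box was searched as TATAAA. The promoter of F630206G17Rik is chr11:45807833-45808132 on the plus strand. Those of Cyfip2, chr11:46312309-46312608, and Gm12185, chr11:48927133-48927432, are on the minus strand, and the RefSeq start of Gm12185 lies inside the longer GENCODE gene whose limits are given with its values.
F630206G17Rik: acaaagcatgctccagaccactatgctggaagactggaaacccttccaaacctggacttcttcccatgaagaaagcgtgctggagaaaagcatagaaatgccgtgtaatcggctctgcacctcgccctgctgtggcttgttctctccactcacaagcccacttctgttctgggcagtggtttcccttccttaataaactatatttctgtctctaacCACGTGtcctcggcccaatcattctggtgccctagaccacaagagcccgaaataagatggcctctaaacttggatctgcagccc
Cyfip2: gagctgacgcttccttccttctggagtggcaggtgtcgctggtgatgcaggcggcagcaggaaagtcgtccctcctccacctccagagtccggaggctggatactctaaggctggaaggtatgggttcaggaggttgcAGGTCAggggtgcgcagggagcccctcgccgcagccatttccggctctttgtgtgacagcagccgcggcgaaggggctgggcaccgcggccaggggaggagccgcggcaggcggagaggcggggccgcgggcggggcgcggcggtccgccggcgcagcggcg
Gm12185: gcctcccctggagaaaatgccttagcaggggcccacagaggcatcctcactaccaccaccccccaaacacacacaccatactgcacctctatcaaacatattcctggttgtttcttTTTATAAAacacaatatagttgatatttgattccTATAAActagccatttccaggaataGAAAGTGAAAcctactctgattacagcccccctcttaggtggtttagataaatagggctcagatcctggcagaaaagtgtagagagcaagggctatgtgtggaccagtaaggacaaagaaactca

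The Cyfip2 promoter was 70.7% G and C with 29 CpG dinucleotides, where the median over 32851 promoters was 52.7% with 7 CpG. It held 1 AGGTCA, 112 bases before the start, and 16.3% of all promoters hold that motif. The Gm12185 promoter was 44.3% G and C with 0 CpG. It held the core of the interferon-stimulated response element 75 bases before the start, found in 3.44% of promoters, and 3 TATAAA matches, of which a pair overlap on opposite strands (13.6% of promoters hold at least 1). The F630206G17Rik promoter was 50.3% G and C with 7 CpG and held CACGTG 34 bases before the start, found in 7.15% of promoters. The 3 promoters shared none of the 4 motifs. A match is a run of letters and not a site shown to be bound.

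**Figure D1:**
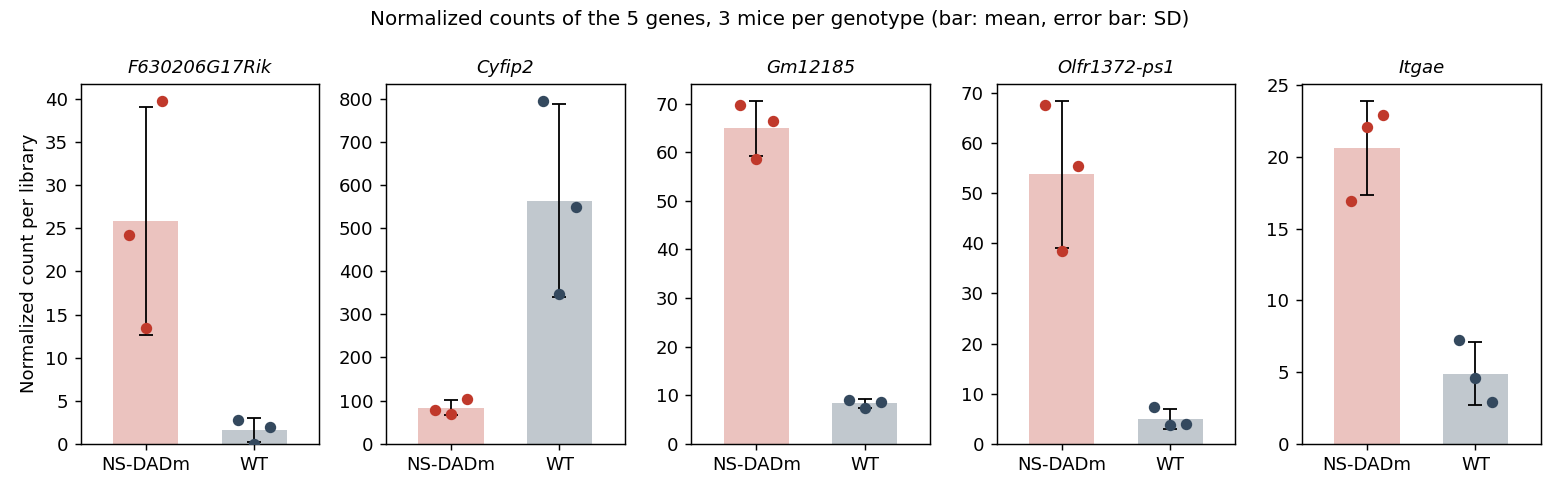
Normalized counts of the 5 genes (vertical axis, linear from 0, a scale of its own for each gene) in NS-DADm and WT muscles, with 1 point per mouse, bars for the mean and error bars for the SD (n = 3 each). In Cyfip2 all 3 NS-DADm mice lie below all 3 WT mice, and in the other 4 genes all 3 lie above.

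Cyfip2 was the gene of the 5 that was lower in NS-DADm muscles, and the most abundant in WT muscles. It lies on the minus strand of chromosome 11 from 46193850 to 46312859, 16.0 Mb from Ncor1. Its normalized counts were 78.1, 69.2 and 104 in the NS-DADm libraries, against 795, 348 and 548 in the WT libraries. The groups did not overlap, and the lowest WT library was 3.35-fold above the highest NS-DADm library. The mean was 83.7 ± 17.98 in NS-DADm and 564 ± 224 in WT (SD, n = 3 each), 6.73-fold lower in NS-DADm, with a log2 difference of -2.68 (standard error 0.27 in the limma fit over the whole table). The WT mice spread widely, at a coefficient of variation of 39.7% against a median of 10.5% over the listed genes, and in NS-DADm it was 21.5% against a median of 12.03%. With each library left out in turn the ratio stayed between 5.35-fold and 8.02-fold lower. Of 16 genes of the WAVE complex and of partners of CYFIP proteins, Cyfip2 alone was listed, so no value is at hand for its paralog Cyfip1, for Nckap1, Abi1 or the Wasf genes, the other subunits, or for Rac1.

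Gm12185 showed the steadiest levels of the 5 genes. It lies on the minus strand from 48904656 to 48992226, 13.3 Mb from Ncor1. Its normalized counts were 69.7, 58.6 and 66.4 in NS-DADm libraries, against 9.05, 7.28 and 8.64 in WT libraries. Every NS-DADm library was at least 6.47-fold above every WT library, the widest gap among the 5 genes. The mean was 64.9 ± 5.70 in NS-DADm and 8.33 ± 0.928 in WT (SD, n = 3 each), 7.79-fold higher in NS-DADm, with a log2 difference of 2.82 (standard error 0.28). Its coefficients of variation were 8.79% in NS-DADm and 11.1% in WT, close to the medians of the listed genes. Gm12185 stands in a cluster of related GTPase genes and its level is uncertain for that reason. Its transcripts shared 1701 bases at 95.8% identity with Gm5431, 2.44 kb away, and shorter stretches with Tgtp1, Tgtp2 and others, 9 genes in all, of which 0 were listed. Of 14 interferon-inducible GTPases and related genes (Irgm1, Ifi47, Tgtp1 and others) 1 was listed, Gbp4, on chromosome 5. Gbp4, a guanylate-binding protein, had normalized counts of 172, 82.6 and 183 in NS-DADm, against 71.5, 89.2 and 51.9 in WT. In Gbp4 the groups overlapped, since NS-DADm replicate 2 lay within the WT range.

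Olfr1372-ps1 was near the bottom of the measured range in WT muscles. It lies on the minus strand from 52154722 to 52168159, 10.1 Mb from Ncor1 and the nearest of the 5. Its normalized counts were 67.6, 38.4 and 55.5 in NS-DADm libraries, against 7.24, 3.64 and 3.84 in WT libraries. The groups were apart by 5.30-fold at their closest. The mean was 53.8 ± 14.7 in NS-DADm and 4.91 ± 2.02 in WT (SD, n = 3 each), 10.97-fold higher in NS-DADm, with a log2 difference of 3.23 (standard error 0.38). Of 1407 genes of the annotation with an Olfr symbol, 100 of them within 17 Mb of Ncor1, this pseudogene alone was listed. Its level too is uncertain, because stretches of at least 100 bases at 95% identity or more were found in transcripts of 164 other genes. The longest such stretch was 1795 bases at 96.3% with Olfr1383, also on chromosome 11, which was not listed, and 7 of the 164 genes were listed.

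F630206G17Rik had the largest ratio of the 5 genes, and the fewest reads in WT. It lies on the plus strand from 45808087 to 45841171, 16.5 Mb from Ncor1 and the farthest of the 5. Its normalized counts were 24.3, 13.4 and 39.8 in NS-DADm libraries, against 2.72, 0 and 1.92 in WT libraries. By the inferred worth of a read, these values stand for 23, 14 and 33 reads in NS-DADm, against 3, 0 and 2 reads in WT, and the ratio then rests on 5 WT reads. The mean was 25.9 ± 13.3 in NS-DADm and 1.55 ± 1.40 in WT (SD, n = 3 each), 16.7-fold higher in NS-DADm, with a log2 difference of 3.47 (standard error 0.63). The ratio was 26.9 without WT replicate 1 and lay between 11.2 and 20.7 without each of the other libraries. F630206G17Rik overlaps 2 processed pseudogenes and a microRNA gene on its own strand and ends 10.9 kb before Clint1, which was not listed and for which RefSeq gives F630206G17Rik as a synonym.

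Itgae had the smallest ratio of the 5 genes. It lies on the plus strand from 73090583 to 73147446, 10.6 Mb from Ncor1, and is the one gene of the 5 on the telomere side. Its normalized counts were 16.9, 22.1 and 22.9 in NS-DADm libraries, against 7.24, 4.55 and 2.88 in WT libraries. The groups did not overlap and were apart by 2.33-fold at their closest. The mean was 20.6 ± 3.27 in NS-DADm and 4.89 ± 2.20 in WT (SD, n = 3 each), 4.22-fold higher in NS-DADm, with a log2 difference of 1.93 (standard error 0.43). The sums behind these means were 58 inferred reads in NS-DADm and 16 in WT. The ratio was 3.98 without NS-DADm replicate 3 and 3.50 without WT replicate 3, below the 4-fold line that set the 5 genes apart.

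Itgae is a gene of lymphocytes and dendritic cells, and in a whole muscle more cells of a type and more RNA per cell cannot be told apart. Of 10 T cell markers, 7 dendritic cell markers and the pan-leukocyte gene Ptprc, 0 were listed. Of 7 markers of B and plasma cells 2 were listed, the antibody chain genes Igkc and Igha, both higher in NS-DADm. Their summed normalized count ranged from 42.3 to 103 in NS-DADm and from 0.960 to 12.7 in WT. The part of such cells in the Itgae difference was not tested. Of 27 genes of integrin chains and E-cadherin 3 were listed. Besides Itgae these were Itgb5, the beta 5 chain, at 2193 ± 312 in NS-DADm and 1479 ± 125 in WT, and Itga4, the alpha 4 chain, at 261 ± 24.8 in NS-DADm and 455 ± 40.0 in WT (SD, n = 3 each). The beta 7 chain, partner of Itgae, was not listed. Of 7 nerve and 6 Schwann cell markers 0 were listed.

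Levels of different genes can be set side by side per kilobase of annotated exon. On that scale the order in NS-DADm was F630206G17Rik at 37.7 ± 19.4, Cyfip2 at 11.8 ± 2.53, Gm12185 at 11.6 ± 1.02, Olfr1372-ps1 at 5.49 ± 1.49 and Itgae at 4.51 ± 0.714 normalized counts per kilobase (SD, n = 3). Cyfip2 and Gm12185 did not differ beyond their spread, nor did Olfr1372-ps1 and Itgae. In WT Cyfip2 came first at 79.4 ± 31.5, followed by F630206G17Rik at 2.26 ± 2.04, Gm12185 at 1.49 ± 0.166, Itgae at 1.07 ± 0.481 and Olfr1372-ps1 at 0.5003 ± 0.206. In WT the neighbours below Cyfip2 in this order did not differ beyond their spread. All the values depend on the annotated exon length, which ranges from 0.685 kb for F630206G17Rik to 9.81 kb for Olfr1372-ps1.

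All 5 genes passed the limma test, as did 100% of the 709 genes (adjusted p under 0.05), and the groups did not overlap in any of the 5, as in 97.9% of all listed genes. Of the listed genes, 50.9% were higher and 49.1% lower in NS-DADm. Since the genes were listed for differing between these same libraries, nothing is read from those shares. A ratio of at least 4 in either direction was found in 6.63% of the listed genes, 47 of 709. By the size of the ratio, F630206G17Rik ranked 2 among the 709 genes, Olfr1372-ps1 8, Gm12185 13, Cyfip2 15 and Itgae 45.

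**Figure D2:**
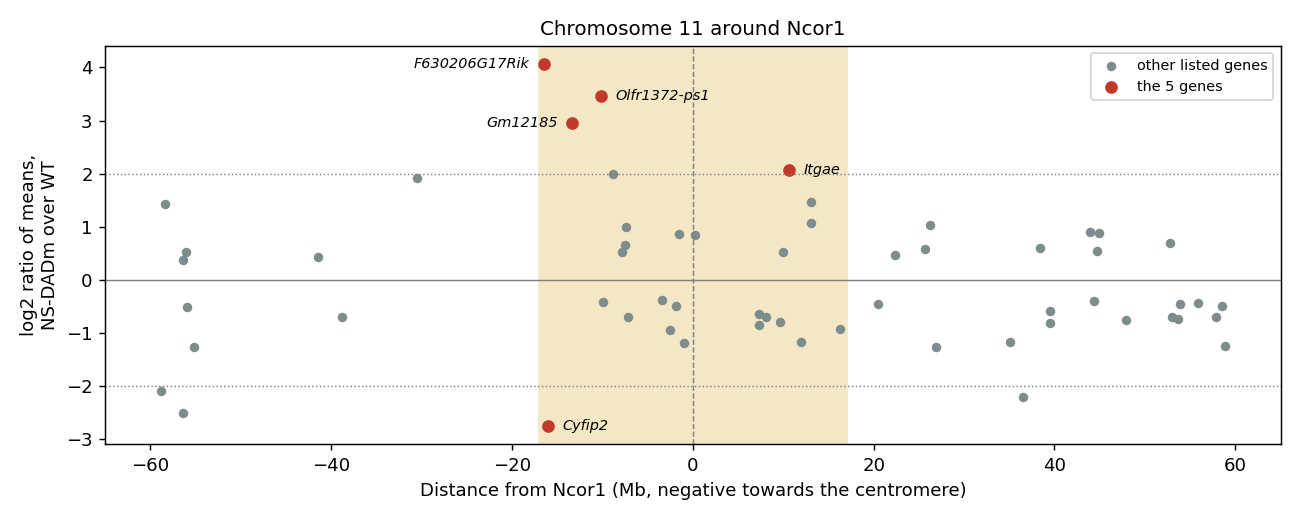
Log2 ratio of the group means, NS-DADm over WT (vertical axis), of each listed gene against its distance in Mb from Ncor1 on chromosome 11, with 17 Mb to each side shaded and dotted lines at 4-fold. The 5 genes (red) are all more than 10 Mb from Ncor1, and 4 of them lie on the centromere side.

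Of the 5 genes, 4 stood together on the centromere side of Ncor1. That side holds 15 of the 26 listed genes within 17 Mb of Ncor1. F630206G17Rik, Cyfip2, Gm12185 and Olfr1372-ps1 span 6.36 Mb, from 45808087 to 52168159, a stretch with 106 annotated protein-coding genes. No other listed gene lies between them, so that they are consecutive in the list. F630206G17Rik and Cyfip2 are the closest pair, 353 kb apart with 7 protein-coding genes between them, and they differed in opposite directions. Of the 3 nearest protein-coding genes on each side of each of the 5 genes, 30 genes in all, 0 were listed. Of 11 annotated genes that overlap one of the 5, 0 were listed, among them Fndc9 inside Cyfip2, Haspin inside Itgae and Tgtp1 at one end of Gm12185. Of all annotated protein-coding genes 2.93% were listed (644 of 21951), so nothing is read from these counts of 0. Whether the authors counted reads by strand is not stated in any source used here, so reads of a gene and of one on the opposite strand may not have been separated. Counting by strand would not separate genes that overlap on the same strand. Tgtp1 overlaps Gm12185 in that way, and the noncoding Gm26551 overlaps Olfr1372-ps1.

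The large ratios were not those nearest to Ncor1. Within 10 Mb of it 17 genes were listed, of which 2 differed at least 2-fold and 0 at least 4-fold. Between 10 and 17 Mb, 9 genes were listed, of which 8 differed at least 2-fold and 5, the genes described here, at least 4-fold. The 8 include these 5, which were chosen for their size. Of all listed genes, 30.5% (216 of 709) differed at least 2-fold. Over the whole segment 5 of 26 listed genes (19.2%) differed at least 4-fold, against 42 of the 683 other listed genes (6.15%). The genes were picked from that count, which is given as a description. The share of annotated protein-coding genes that were listed was 3.50% within 17 Mb of Ncor1 (22 of 629) and 2.92% elsewhere (622 of 21322). It was 3.12% up to 5 Mb from Ncor1, 5.42% from 5 to 10 Mb, 2.26% from 10 to 17 Mb and 2.03% from 17 to 30 Mb. The 4-fold limit did not enter this share, but listing rests on the authors' call between these same libraries. The protein-coding genes among the 5 are counted in it. Without them the share within 17 Mb of Ncor1 was 3.02% (19 of 629). On chromosome 11 as a whole 8 of 59 listed genes differed at least 4-fold (13.6%), and on the 19 other chromosomes with listed genes the share ranged from 0 to 15.4%.

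**Figure D3:**
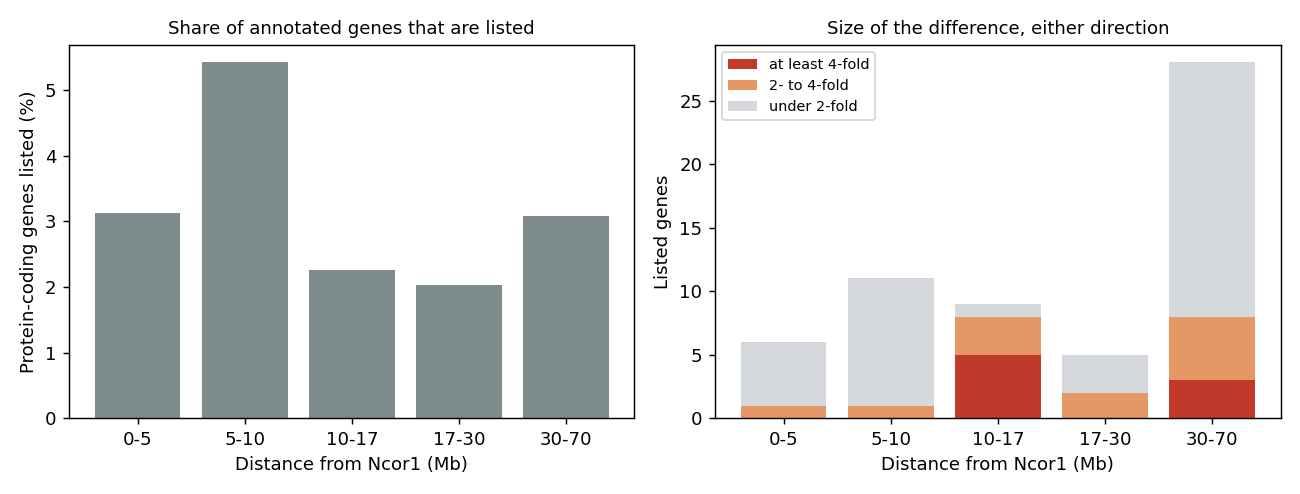
Left, percent of annotated protein-coding genes of chromosome 11 that are listed, by distance from Ncor1 in Mb. Right, number of listed genes in the same distance classes, split by the size of the ratio between the group means in either direction. The classes up to 10 Mb hold 17 listed genes and none at 4-fold or more, and the class from 10 to 17 Mb holds 5 of 9.

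The other 21 listed genes of the segment were 9 higher and 12 lower in NS-DADm. Shroom1, of a family of actin-binding proteins, stood just outside the choice at 3.96-fold higher, with 29.6, 26.9 and 20.5 normalized counts in NS-DADm libraries, against 6.34, 6.37 and 6.72 in WT libraries. It is 8.85 Mb from Ncor1, on the same side as the group of 4. Itgae, at 4.22-fold, stood just inside. Another 4 genes differed at least 2-fold. Slc43a2, an amino acid transporter, was 2.103-fold higher at 809 ± 63.0 in NS-DADm and 385 ± 52.1 in WT, and Gm45606, annotated as antisense and overlapping the Slc43a2 locus, was 2.76-fold higher. Slc47a1, an exporter of organic cations, was 2.28-fold lower at 331 ± 57.6 in NS-DADm and 755 ± 221 in WT. Rap1gap2, which switches off the GTPase Rap1, was 2.24-fold lower at 42.2 ± 1.84 in NS-DADm and 94.6 ± 15.5 in WT (SD, n = 3 each).

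The 3 listed genes nearest to Ncor1 differed less. Mmgt2, a membrane magnesium transporter 0.190 Mb away, was 1.79-fold higher in NS-DADm, with 68.6, 72.0 and 80.9 normalized counts in NS-DADm libraries against 48.9, 37.3 and 37.5 in WT libraries. Slc47a1 is 0.938 Mb away. Shmt1, a serine hydroxymethyltransferase 1.505 Mb away, was at 326 ± 29.96 in NS-DADm and 179 ± 26.3 in WT (SD, n = 3 each). Fam58b, 16.3 Mb away, was 1.90-fold lower in NS-DADm and lies inside the distance limit like F630206G17Rik. Beyond the limit the next listed gene on the telomere side was Unc45b, a myosin chaperone, 20.5 Mb away and 1.37-fold lower. On the centromere side it was the noncoding D630024D03Rik, 30.5 Mb away and 3.76-fold higher.

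**Figure D4:**
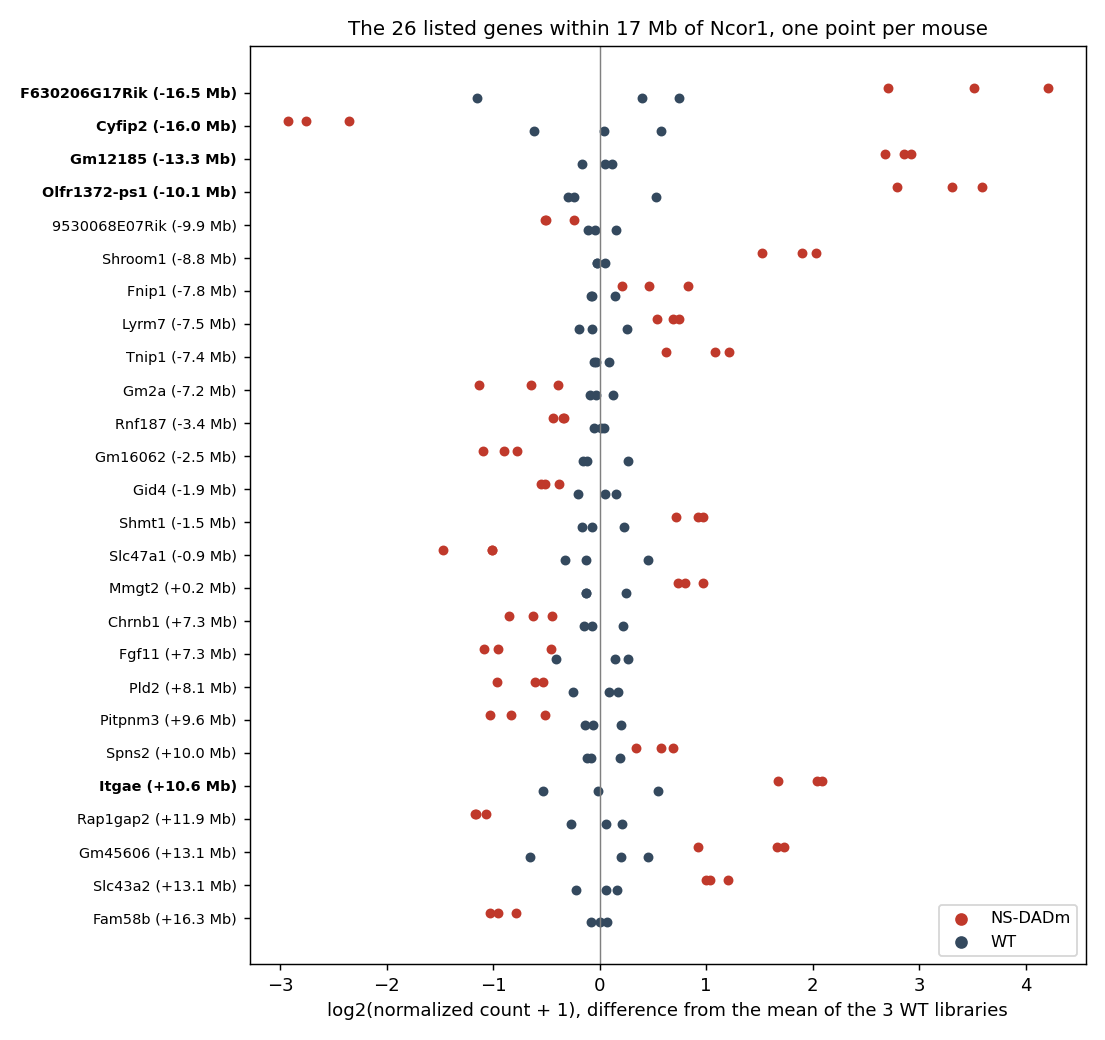
Log2(normalized count + 1) of each library minus the mean of the 3 WT libraries (horizontal axis) for the 26 listed genes within 17 Mb of Ncor1, ordered from the centromere side to the telomere side with their distance in Mb, and with 1 point per mouse. The 5 genes are in bold. The NS-DADm points of F630206G17Rik, Cyfip2, Gm12185 and Olfr1372-ps1 lie farthest from 0. Those of Itgae lie closer in and overlap those of Shroom1.

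The median size of the ratio in either direction was 1.86 over the 26 listed genes within 17 Mb of Ncor1 and 1.64 over all listed genes. The 26 include the 5 genes, which were chosen for the size of their ratio. Over the other 21 genes the median was 1.79.

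Within a genotype, 4 of the 5 genes were lowest in the same mouse, but in NS-DADm they were not highest in the same mouse. The highest NS-DADm library was replicate 3 in F630206G17Rik and Cyfip2, and replicate 1 in Gm12185 and Olfr1372-ps1. NS-DADm replicate 2 was the lowest of the 3 NS-DADm libraries in 4 of the 5 genes, all but Itgae, and it was the lowest in 29.5% of all listed genes. After subtraction of the genotype means, Pearson's r over the 6 libraries was between 0.68 and 0.94 for the 6 pairs among the 4 genes of the centromere side, and between 0.00 and 0.45 for the 4 pairs with Itgae. Over all pairs of listed genes its quartiles were -0.41 and 0.45. The lowest WT library was replicate 2 in Cyfip2, Gm12185, Olfr1372-ps1 and F630206G17Rik and replicate 3 in Itgae. For WT the share over all listed genes was not counted, so nothing is read from this. By the correlations, Cyfip2 varied with the other 3 inside the genotypes, although it differed the other way between them. These are descriptions over 6 libraries, and all genes of a library share its preparation and size factor. Apart from Cyfip2, the WT values of the 5 genes rest on 0 to 10 inferred reads per library, near the floor.

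The listed genes with the most similar profiles lay mostly on other chromosomes, as do most listed genes. Of all 709 listed genes, 59 are on chromosome 11. Over the 6 libraries, Pearson's r of log2(normalized count + 1) was highest with Fam19a3 (0.997) and D830039M14Rik (0.983) for Cyfip2, and with C030037D09Rik (0.999) and Aldh9a1 (0.998) for Gm12185. For Olfr1372-ps1 it was highest with the pseudogene Gm5913 (0.994) and again Aldh9a1 (0.991), for F630206G17Rik with Agpat3 (0.995) and Map6 (0.984), and for Itgae with Cacng7 (0.993) and Gstm7 (0.988). Of these, C030037D09Rik is on chromosome 11. Because all listed genes differ between the genotypes, high values are common, and between 12.1% and 30.5% of the other listed genes had an r over 0.9 with each of the 5. The similar genes differed less in size, from 1.36-fold to 2.76-fold higher and from 1.45-fold to 1.62-fold lower in NS-DADm, apart from Gm5913 at 12.6-fold higher.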

How the data were processed

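The authors' deposited table holds normalized counts, a signal that is never negative, for the 709 genes they called, with genotype taken from the sample labels. Per the paper's methods, reads were aligned to GRCm38 with STAR (2.5.3a) and genes tested with DESeq2. TopHat2 (2.1.0) and HTSeq stand beside DESeq2 (1.8.2) in the submitters' processing notes, and the conflict could not be settled. No source used here states the annotation release. Columns of the authors' own comparison (means, fold changes, p-values) were not used. Values were whole multiples of 1 step per library (100% within 0.01). That 1 step is 1 read was inferred, with too few low values to establish it, so read numbers are inferred too.

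log2(normalized count + 1) was fitted over all 709 genes with limma 3.58.1 in R 4.3.3, with a mean-variance trend and Benjamini-Hochberg adjustment. The fit was tested on simulated data. No filter on low values was applied, and all 5 genes entered. Ratios are of group means, while log2 differences and standard errors are limma's, which understate the change of low genes: for F630206G17Rik the ratio was 16.7, while the log2 difference was 3.47 with a pseudocount of 1, 3.94 with 0.5 and 2.17 with 5. With 3 mice against 3, an exact permutation test of 1 gene cannot go below 0.1 and was not used. GENCODE M21 (GRCm38) gave positions and exon lengths for 706 of the 709 identifiers. Distances run between nearest gene ends. Transcripts were compared with BLAST 2.17.0 (at least 95% identity over 100 bases). Promoters are RefSeq's (GRCm38.p6).

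The genes and gene lists were chosen with earlier results of these data known. Named genes are the 5, the listed genes within 17 Mb of Ncor1 that differed at least 2-fold, the 3 nearest to Ncor1, the nearest beyond 17 Mb on each side, the 2 most similar profiles per gene and the listed genes of the lists. Fam58b, Inpp5j and Top2a were named after their values were seen. Alternatives covered pseudocounts, a filter, quantile normalization, a fit without trend, a block on the replicate number, other windows and leaving out each library. Some genes and the comparisons that need them are not reported here.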

Additional observations from a re-analysis of the deposited data

How the results depend on the processing

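The block, the fit without trend and the filter cannot change a fitted log2 difference, so 11 of 56 values of the 5 genes were fixed by construction. Of the other 45, 39 moved by less than the spread between replicates, 6 moved by more and 0 changed sign. With a pseudocount of 5 the log2 differences were 2.17 for F630206G17Rik, 2.39 for Gm12185, 2.56 for Olfr1372-ps1 and 1.39 for Itgae, closer to 0 because a larger pseudocount shrinks the change of genes with few reads. Under quantile normalization Gm12185 was at 2.62 and Itgae at 1.49, and the cause was not tested. Without each library in turn the log2 differences ranged from -2.99 to -2.39 for Cyfip2, 2.90 to 3.86 for F630206G17Rik, 2.74 to 2.89 for Gm12185, 3.05 to 3.50 for Olfr1372-ps1 and 1.67 to 2.21 for Itgae. A filter at a mean of 50 normalized counts kept Cyfip2 alone of the 5. The number of listed genes passing limma, 709, was 626 with that filter, out of the fewer genes that the filter kept. It was 672 under quantile normalization and 705 to 709 without each library. With the replicate number as a block it was 709, the log2 difference of Cyfip2 was -2.68 by construction, and the standard errors were smaller, at 0.22 in place of 0.27 for Cyfip2 and 0.42 in place of 0.63 for F630206G17Rik. Over all listed genes, libraries with the same number deviated from their group means with correlations of -0.15, 0.15 and 0.05. In Cyfip2, Gm12185, Olfr1372-ps1 and F630206G17Rik replicate 2 was the lowest library of both genotypes. In WT this rests on few inferred reads in all of them but Cyfip2. Whether mice were paired by number cannot be told from these values. Windows of 5 and 10 Mb around Ncor1 held 6 and 17 listed genes in place of 26, since fewer genes fit. With ratios of at least 2 and 8 as the limit, 10 and 2 listed genes within 17 Mb of Ncor1 passed in place of 5. Count-based tests with edgeR and DESeq2 were not run, because too few low values were at hand to establish that the inferred reads are whole reads. By the inferred reads, WT sums were lowest for F630206G17Rik, at 5, followed by 16 each for Itgae and Olfr1372-ps1.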

Other observations

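Among listed genes of chromosome 11 beyond 17 Mb of Ncor1 that differed at least 4-fold were Inpp5j and Top2a, both lower in NS-DADm muscles. Inpp5j, an inositol polyphosphate phosphatase 58.8 Mb away, had 23.0 ± 9.11 normalized counts in NS-DADm and 97.7 ± 15.4 in WT. Top2a, the topoisomerase of dividing cells, 36.5 Mb away, had 5.96 ± 1.002 in NS-DADm and 27.5 ± 21.7 in WT (SD, n = 3 each). The WT spread of Top2a was wide, as it was for Cyfip2.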
